A study of Arabidopsis thaliana with 6 samples.

Results

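The 10 genes described here carry nitrate from uptake to glutamine and asparagine in Arabidopsis thaliana, the thale cress. They were taken by locus identifier from the 24434 genes of the deposited table, and all 10 were found. They are the nitrate transporters NRT1.1 (AT1G12110) and NRT2.1 (AT1G08090), the nitrate reductases NIA1 (AT1G77760) and NIA2 (AT1G37130), the nitrite reductase NIR1 (AT2G15620), the glutamine synthetases GLN2 (AT5G35630), GLN1;1 (AT5G37600), GLN1;2 (AT1G66200) and GLN1;3 (AT3G17820), and the asparagine synthetase ASN2 (AT5G65010). Transcripts were measured by RNA sequencing in stems of the Columbia ecotype, with 3 libraries from the wild type (WT) and 3 from an overexpressor of the gene labelled Bnt07G011994. Per the labels' protocols, all plants grew in a greenhouse at 22 °C with 15 h of light a day. Stems were cut when about 10 cm long, and the stem material of each plant made its own library. The labels used here do not give the promoter behind the transgene, the number of transgenic lines or the hour of harvest. The comparison is between the genotypes. Values of 3 libraries are always listed in the order of replicates 1 to 3.

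Plants import nitrate through NRT1 and NRT2 carriers, reduce it to nitrite in the cytosol with nitrate reductase, and reduce nitrite to ammonium in plastids with nitrite reductase. Glutamine synthetase then fixes ammonium onto glutamate, in plastids through the GLN2 product and in the cytosol, largely along the vascular tissue, through the GLN1 products. Asparagine synthetase passes the nitrogen on to asparagine, a transport form. Nitrate, light, sugar supply and the circadian clock are all known to act on the transcription of nitrate and nitrite reductase genes.

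The promoters of 3 genes are printed, because NIA1 and NIA2 encode the same enzyme and differed in which libraries they were high, while NIA2 and NIR1 encode successive steps and were lowest in the same library. Each is the 300 bases before the annotated transcript start, read 5′ to 3′ on the strand of the gene, from the RefSeq copy of TAIR10.1. Capitals mark matches to the TATA box on either strand. The windows are chr1:29239485-29239784 (minus strand) for NIA1, chr1:14158152-14158451 (plus strand) for NIA2 and chr2:6810095-6810394 (plus strand) for NIR1.
NIA1: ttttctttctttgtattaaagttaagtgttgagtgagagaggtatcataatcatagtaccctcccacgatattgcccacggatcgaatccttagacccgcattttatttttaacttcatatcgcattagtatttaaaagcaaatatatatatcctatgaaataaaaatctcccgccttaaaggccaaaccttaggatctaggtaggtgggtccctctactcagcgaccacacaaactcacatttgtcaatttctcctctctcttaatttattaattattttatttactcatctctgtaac
NIA2: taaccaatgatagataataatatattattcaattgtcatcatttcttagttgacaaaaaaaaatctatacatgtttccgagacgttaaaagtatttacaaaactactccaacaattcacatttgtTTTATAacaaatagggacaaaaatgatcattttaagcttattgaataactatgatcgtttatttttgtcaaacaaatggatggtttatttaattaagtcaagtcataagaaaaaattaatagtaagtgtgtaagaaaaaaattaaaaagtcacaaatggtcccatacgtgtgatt
NIR1: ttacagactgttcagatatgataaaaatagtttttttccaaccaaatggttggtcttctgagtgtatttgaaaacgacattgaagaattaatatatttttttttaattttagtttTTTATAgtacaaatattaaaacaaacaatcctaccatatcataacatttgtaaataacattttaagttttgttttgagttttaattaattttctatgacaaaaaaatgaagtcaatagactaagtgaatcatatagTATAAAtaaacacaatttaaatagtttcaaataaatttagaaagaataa
Motifs were searched on both strands in the same windows of 27443 nuclear protein-coding genes. The G-box, with the letters CACGTG, occurs in 7.09% of them. The evening element, spelled AAATATCT, occurs in 5.64%. The GATA element was searched as GATAAG and occurs in 14.5%. The TATA box was searched as TATAAA and occurs in 52.9%. In the 10 windows of these genes the TATA box letters occurred in 6, NIA2 and NIR1 among them, the GATA letters only in NRT2.1, and the other letters in none. The bases A and T made up 65.0% of the NIA1 window, 75.3% of the NIA2 window and 79.3% of the NIR1 window.

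The values are FPKM, fragments per kilobase of transcript scaled to library size, which allow levels to be compared between genes. Libraries held 44597288 to 45642240 reads assigned to genes. WT replicate 1 stood apart: its Spearman correlation across the 16870 genes averaging 1 FPKM or more was 0.875 to 0.940 with each other library, against 0.971 to 0.997 among the other 5. Results are therefore given with and without it. The tissue label was checked against markers. The 7 genes of fibre and vessel secondary walls summed to 173 to 1076 FPKM, and the 3 root markers in the table (PYK10, COBL9 and CASP1) to at most 0.0347 FPKM. Of 5 flower and pollen markers in the table, TPD1 stood at 11.6 to 19.3 FPKM and the other 4, AP3, PI, AG and SEP3, at no more than 1.54 FPKM.

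None of the genes that could be tested passed the test for a genotype difference, while several differed widely between plants of one genotype. Of 9 that reached the level needed for testing, a mean of 1 FPKM, limma called 0 at an adjusted p under 0.05, and it called 0.0119% of all 16870 genes tested. Without WT replicate 1 it again called 0 of the 9, against 0.136% of all genes (0.0949% higher and 0.0415% lower in the overexpressor). At an unadjusted p under 0.05 there was 1 gene of the 9, NIA1, against 5.43% of all genes. The median log2 fold change of the 9, on log2(FPKM + 1), overexpressor over WT, was 0.070 beside -0.036 over all genes, and -0.063 beside -0.020 without WT replicate 1. The groups did not overlap in 1 of the 9, GLN1;2, which was lower in the overexpressor, against 14.5% of all genes (4.76% higher and 9.69% lower). The plot of levels by library gives all 10 genes.

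**Figure D1:**
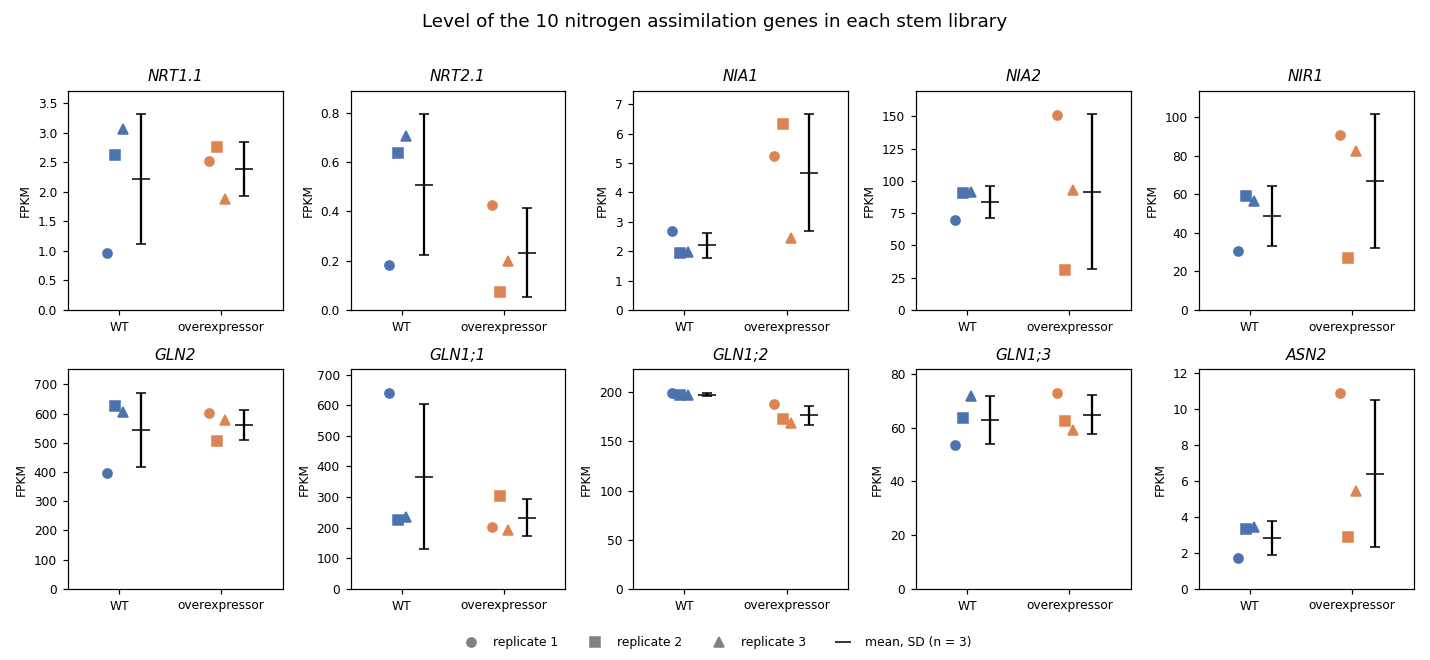
Level in FPKM (y axes, from 0) of each of the 10 genes in the 3 WT and 3 overexpressor libraries, points by replicate, with mean and SD (n = 3) in black. NIA2 runs from 31.1 to 151 FPKM within the overexpressor, and GLN1;1 stands at 639.9 FPKM in WT replicate 1 against 192 to 304 FPKM elsewhere.

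The genes covered a wide span of levels, with the same order at the top in both genotypes. GLN2 had the highest mean, 544 ± 127 FPKM for WT and 561 ± 49.9 for overexpressor plants (SD, n = 3 each), followed by GLN1;1, GLN1;2 and NIA2. In WT the libraries of GLN2 and GLN1;1 overlapped, as did those of NIA2 with GLN1;3 and of GLN1;3 with NIR1. In the overexpressor NIA2, NIR1 and GLN1;3 overlapped, each with its neighbour in that order. The lowest levels were those of ASN2, NRT1.1 and NIA1, which overlapped their neighbours, and of NRT2.1 below them in both genotypes.

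NRT1.1 and NRT2.1 had low levels in the stem, where other nitrate carriers such as NRT1.7 (63.7 to 94.5 FPKM) and NRT1.12 (36.6 to 48.3 FPKM), both named after their values were seen, stood far higher. NRT1.1 (chromosome 1, 4105223 to 4109601, plus strand), a dual-affinity carrier that also acts as a nitrate sensor, had 0.967, 2.62 and 3.06 FPKM in the WT plants and 2.52, 2.77 and 1.87 FPKM in the overexpressor plants. WT replicate 1 was lowest of all, and the other 5 libraries of both genotypes intermingled. The log2 fold change was 0.13 (SE 0.30, 95% interval -0.59 to 0.86, limma adjusted p = 0.901), and it turned to -0.19 (SE 0.15, limma adjusted p = 0.726) without WT replicate 1. NRT2.1 (chromosome 1, 2524023 to 2526322, plus strand), a high-affinity carrier best known from roots, had 0.181, 0.638 and 0.707 FPKM in the WT plants against 0.427, 0.0727 and 0.200 FPKM in the overexpressor plants. It was below the level needed for testing. These values rest on 7 to 67 reads a library, and 3 reads, the limit for a gene counted at 0, would be 0.0311 to 0.0319 FPKM, a figure that covers counting error alone. The tandem neighbour NRT2.2 matches 1576 bp of NRT2.1 at 88.8% identity, so reads of the pair may have been shared. NRT2.2 was not among the genes with deposited values.

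Nitrate reductase transcripts came mostly from NIA2, and NIA2 varied more between overexpressor plants than between genotypes. NIA2 (chromosome 1, 14158452 to 14161938, plus strand), which carries most of the enzyme activity of leaves, stood at 69.5, 90.9 and 91.2 FPKM in WT. In the overexpressor it stood at 151, 31.1 and 92.9 FPKM, so that the highest and the lowest of the 6 libraries were both overexpressor plants, 4.86-fold apart. Its log2 fold change was -0.13 (SE 0.56, 95% interval -1.49 to 1.23, limma adjusted p = 0.951), -0.26 without WT replicate 1 and 0.50 without overexpressor replicate 2 (limma adjusted p = 0.927 and 0.752). The interval leaves room for differences of over 2-fold in either direction. The range of NIA2 within the overexpressor, 2.25 on the log2(FPKM + 1) scale, was above that of 99.8% of all genes tested, and that within WT, 0.39, above that of 52.3%.

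NIA1 (chromosome 1, 29235721 to 29239484, minus strand), the other nitrate reductase gene, had a low level and another pattern. It had 2.67, 1.95 and 1.96 FPKM in the WT plants against 5.24, 6.32 and 2.46 FPKM in the overexpressor plants. Its highest library was overexpressor replicate 2, the one in which NIA2 was lowest, and overexpressor replicate 3 lay below WT replicate 1. On the log2 scale the fold change of NIA1 was 0.77 (SE 0.30, 95% interval 0.044 to 1.49, limma adjusted p = 0.805), and 0.87 without WT replicate 1 (SE 0.31, limma adjusted p = 0.415). NIA1 made up 3.70%, 2.1% and 2.1% of the summed FPKM of both genes in WT, and 3.35%, 16.9% and 2.58% in the overexpressor. The share of NIA2, the remainder, differed by -4.97 percentage points between genotypes (exact permutation test, two-sided, p = 0.3, adjusted p = 0.625 over 5 shares), where 3 against 3 libraries cannot give a p below 0.1.

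Nitrite reductase was low in the same overexpressor plant as NIA2. NIR1 (chromosome 2, 6810395 to 6812941, plus strand), a plastid enzyme that holds a sirohaem group, had 30.8, 59.0 and 56.4 FPKM in the WT plants against 90.9, 26.8 and 82.6 FPKM in the overexpressor plants. Overexpressor replicate 2 was lowest and WT replicate 1 second lowest of the 6 libraries, and the other 2 overexpressor libraries lay above all of WT. NIR1 had a log2 fold change of 0.32 (SE 0.52, 95% interval -0.94 to 1.59, limma adjusted p = 0.863), 0.028 without WT replicate 1 and 0.87 without overexpressor replicate 2 (limma adjusted p = 0.992 and 0.752). Its range within the overexpressor, 1.72 on the log2 scale, was above that of 99.4% of all genes tested. The ratio of NIR1 to NIA2 FPKM was 0.443 to 0.648 in WT and 0.602 to 0.890 in the overexpressor.

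UPM1 (AT5G40850), which makes the first dedicated precursor of sirohaem and was named after its values were seen, was low in the same libraries as NIR1. It had 13.01, 27.2 and 28.9 FPKM in the WT plants against 34.8, 12.8 and 26.6 FPKM in the overexpressor plants, with its lowest libraries again overexpressor replicate 2 and WT replicate 1. Between genotypes UPM1 had a log2 fold change of 0.068 (limma adjusted p = 0.966). The other cofactor and reductant genes were mixed in this pattern. RFNR2 and G6PD3, named after their values were seen, were also lowest within their genotypes in WT replicate 1 and overexpressor replicate 2. SIRB, another gene of sirohaem synthesis, was also named after its values were seen. It had 12.97, 9.22 and 8.998 FPKM in the WT plants against 10.4, 10.5 and 10.2 FPKM in the overexpressor plants. Within WT, 10 of the 13 cofactor and reductant genes (76.9%) were highest in WT replicate 1, beside 50.6% of all genes tested, and 3 were lowest there. Within the overexpressor, 6 of the 13 (46.2%) were lowest in replicate 2, beside 29.5% of all genes tested, and 4 were highest there. The plot of levels relative to each gene's mean sets these libraries side by side.

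**Figure D2:**
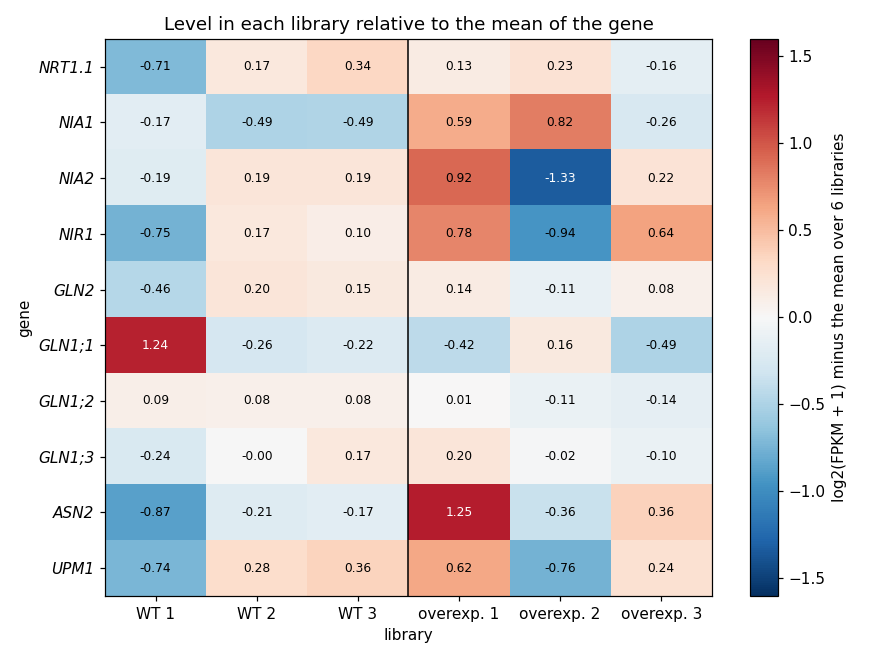
Level of the 9 tested genes and UPM1 (rows) in each library (columns), as log2(FPKM + 1) minus the mean of that gene over the 6 libraries (colour and printed value), WT left of the line and overexpressor right. Overexpressor replicate 2 stands at -1.33 for NIA2 and -0.94 for NIR1 but at 0.82 for NIA1, and WT replicate 1 at 1.24 for GLN1;1.

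Markers of other processes moved with these 2 libraries. Summed over 7 day and evening clock genes, WT replicates 1 to 3 stood at 699.99, 188 and 179 FPKM and overexpressor replicates 1 to 3 at 266, 377 and 294 FPKM, so WT replicate 1 and overexpressor replicate 2 were each highest in their genotype. Summed over the 7 secondary wall genes the same libraries were each lowest, at 173 FPKM against 851 and 911 in WT, and at 718 FPKM against 1015 and 1076 in the overexpressor. All 7 secondary wall genes were at their lowest in these libraries within each genotype, and green tissue markers were highest in 7 of 8. Over all genes tested, WT replicate 1 was the lowest WT library in 42.2% and the highest in 50.6%. Overexpressor replicate 2 was the lowest of its genotype in 29.5% and the highest in 44.1%. Among single markers, GI, an evening clock gene, had 94.7, 6.85 and 6.98 FPKM in the WT plants against 24.3, 44.2 and 30.9 FPKM in the overexpressor plants. CESA4, a secondary wall cellulose synthase, had 37.1, 245 and 259 FPKM against 266, 195 and 306 FPKM in the same order. CESA7 and CESA8, TOC1, CAB2 and LHCB3 likewise had their lowest (CESA) or highest value within each genotype in those libraries. The 3 morning clock genes, CCA1, LHY and RVE8, summed to 26.9, 8.29 and 8.43 FPKM in the WT plants against 5.58, 10.8 and 7.33 FPKM in the overexpressor plants, and each was highest within its genotype in those libraries too. The part of these differences in the levels of NIA2 and NIR1 was not tested. In whole stems, fewer cells of a type and less RNA per cell cannot be told apart.

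Of the glutamine synthetases in the set, the plastid gene was the steadier of the most abundant pair. GLN2 (chromosome 5, 13830429 to 13833542, plus strand) had 398, 627 and 606 FPKM in the WT plants against 600.2, 505 and 578 FPKM in the overexpressor plants. WT replicate 1 was lowest, and the overexpressor lay within the range of WT. For GLN2 the log2 fold change was 0.070 (SE 0.20, 95% interval -0.42 to 0.57, limma adjusted p = 0.924), and it turned to -0.14 without WT replicate 1 (SE 0.11, limma adjusted p = 0.706).

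GLN1;1 (chromosome 5, 14933286 to 14935885, minus strand), a cytosolic enzyme of high affinity for ammonium, went the other way in WT replicate 1. It had 639.9, 226 and 233 FPKM in the WT plants against 202, 304 and 192 FPKM in the overexpressor plants. WT replicate 1 was far above the other 5 libraries, and overexpressor replicate 2 was the highest of its genotype. The log2 fold change of -0.50 (SE 0.44, 95% interval -1.59 to 0.58, limma adjusted p = 0.805) with that WT library came to -0.011 without it (SE 0.20, 95% interval -0.51 to 0.48, limma adjusted p = 0.992).

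GLN1;2 and GLN1;3, also cytosolic, varied less between plants than GLN1;1. GLN1;2 (chromosome 1, 24655115 to 24657703, minus strand), a gene known for its response to ammonium supply, had 199, 197 and 197 FPKM in the WT plants against 188, 173 and 169 FPKM in the overexpressor plants. Every overexpressor library lay below every WT library, by a small margin. Its log2 fold change was -0.16 (SE 0.082, 95% interval -0.36 to 0.037, limma adjusted p = 0.805), and -0.16 without WT replicate 1 (limma adjusted p = 0.568). GLN1;3 (chromosome 3, 6097201 to 6099595, plus strand), a cytosolic enzyme of low affinity for ammonium, had 53.7, 63.5 and 71.7 FPKM in the WT plants against 72.9, 62.4 and 59.0 FPKM in the overexpressor plants. Its groups overlapped throughout, with a log2 fold change of 0.045 (SE 0.14, 95% interval -0.30 to 0.38, limma adjusted p = 0.931) and of -0.063 without WT replicate 1.

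**Figure D3:**
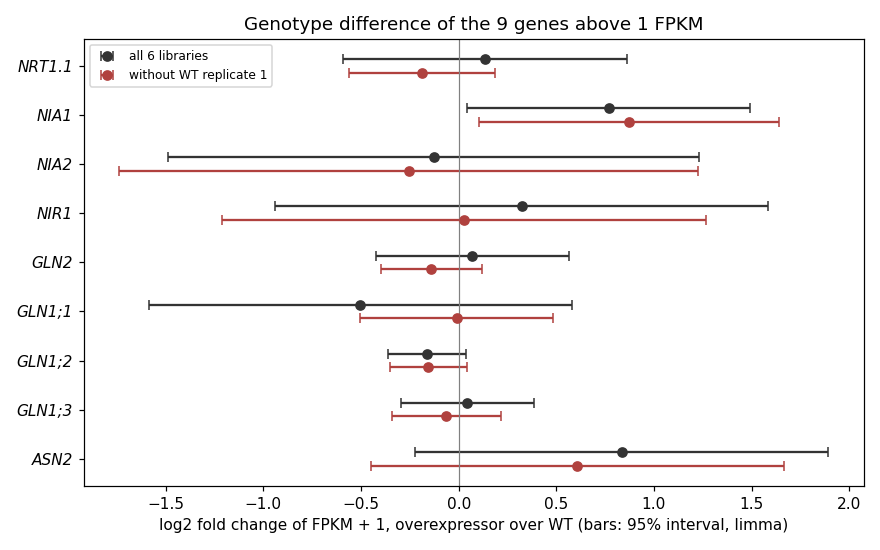
Log2 fold change of FPKM + 1 (x axis, overexpressor over WT) of the 9 tested genes, with 95% intervals from limma, over all 6 libraries (black) and without WT replicate 1 (red). Intervals span 0 for every gene but NIA1, whose adjusted p was 0.805, and the GLN1;1 point goes from -0.50 to -0.011.

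Among the 4 glutamine synthetase genes of the set, GLN2 and GLN1;1 had other shares in WT replicate 1 than elsewhere. This pool leaves out GLN1;4, a cytosolic gene that is not among the 10. GLN2 supplied 30.8% of the summed FPKM of the 4 genes in WT replicate 1 and 48.3 to 57.9% in the other 5 libraries. GLN1;1 supplied 49.6% in WT replicate 1, 29.1% in overexpressor replicate 2 and 19.0 to 21.0% in the other 4. The shares of GLN1;2 (15.5 to 17.8%) and GLN1;3 (4.16 to 6.86%) varied less. Between genotypes the share of GLN2 differed by 6.95 percentage points and that of GLN1;1 by -7.85 (exact permutation test, two-sided, p = 0.5 for each, adjusted p = 0.625 over 5 shares). Without WT replicate 1 these differences turned to -1.29 and 1.79. The shares of GLN1;2 and GLN1;3 differed by 0.095 and 0.81 percentage points (exact permutation p = 1.0 and 0.4, adjusted p = 1.0 and 0.625). The summed FPKM of the 4 genes was 1108 to 1291 in WT and 998 to 1063 in the overexpressor, without overlap. With GLN1;4 added to the pool, after its values were seen, GLN1;4 itself supplied 21.2%, 21.4% and 22.2% in the WT plants and 10.8%, 19.6% and 12.6% in the overexpressor plants. Its groups did not overlap, and no test was made of this share. The sum of the 5 genes was 1417 to 1637 FPKM for WT and 1142 to 1298 FPKM for the overexpressor. In this pool GLN2 differed by 9.59 percentage points and GLN1;1 by -4.73 between genotypes (exact permutation p = 0.3 and 1.0).

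**Figure D4:**
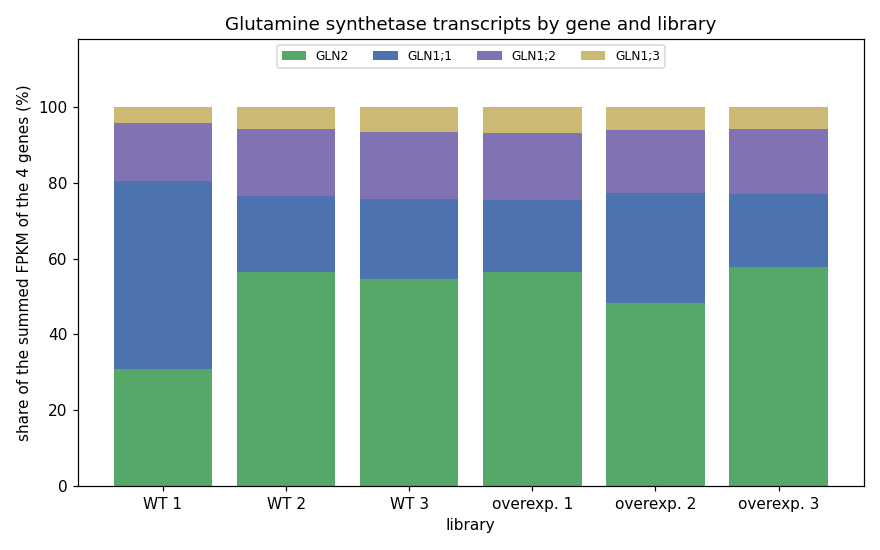
Share in percent (y axis, from 0) of GLN2, GLN1;1, GLN1;2 and GLN1;3 in the summed FPKM of the 4 genes, 1 stacked bar a library. GLN1;1 makes up 49.6% in WT replicate 1 and 19.0 to 29.1% in the other libraries.

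ASN2 (chromosome 5, 25969035 to 25972575, plus strand), an asparagine synthetase gene induced by light in seedlings, had 1.73, 3.32 and 3.42 FPKM in the WT plants against 10.9, 2.88 and 5.42 FPKM in the overexpressor plants. Overexpressor replicates 1 and 3 lay above WT, and overexpressor replicate 2 was among the WT values. ASN2 had a log2 fold change of 0.83 (SE 0.43, 95% interval -0.22 to 1.89, limma adjusted p = 0.805), and 0.61 without WT replicate 1 (SE 0.43, limma adjusted p = 0.686). Its range within the overexpressor was above that of 99.2% of all genes tested, and the range of NIA1 above that of 97.1%. Within WT, the ranges of NIA1, NIA2, ASN2 and NIR1 were above those of 43.2%, 52.3%, 76.4% and 84.8% of genes.

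Reads of close relatives limit how far some of these values belong to 1 gene. The longest match to another locus was 1721 bp at 87.3% identity for ASN2, to ASN3, and 1106 bp at 85.3% for GLN1;1, to GLN1;2. NIA1 and NIA2 matched over 2586 bp at 73.9%, and NIR1 matched no other locus. No exon of the 10 genes overlapped an exon of another gene. How the authors treated reads that fit several places was not stated in the labels used here.

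Of the genes averaging 5 FPKM or more, 12612 others were compared with NIA2, NIR1 and GLN2 by the Pearson correlation of log2(FPKM + 1) over the 6 libraries, which share their genotype groups and their odd libraries. The closest to NIA2 were AT2G01755 (r = 0.992), LYM3 (0.992) and ATVPS33 (0.989). The closest to NIR1 were AT5G44720 (0.993), AT1G12760 (0.990) and PMEAMT (0.984). The closest to GLN2 were AT5G21940 (0.999), BGAL4 (0.999) and BCA4 (0.998). These correlations do not measure the size of a change. ATVPS33 ran only from 18.1 to 20.8 FPKM and AT1G12760 from 30.2 to 33.7 FPKM, while BGAL4 ran from 57.9 to 154 FPKM. NIR1 ranked 82nd in likeness to NIA2 (r = 0.875), and NIA2 ranked 210th in likeness to NIR1. UPM1 ranked 39th in likeness to NIR1 (0.945), and GLN2 ranked 1537th in likeness to NIA2 (0.486).

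Other genes of the pathway were also without a call over all 6 libraries. In 4 lists of nitrate transport, cofactors and reductant, ammonium transport and assimilation, and nitrate signalling, 71 of 81 genes could be tested. Limma called 0 of the 71 at an adjusted p under 0.05, and 11 (15.5%) had an unadjusted p under 0.05, beside 5.43% of all genes. The median log2 fold change was -0.096, with 25 of 71 positive (35.2%), beside -0.036 and 42.3% over all genes. The groups did not overlap in 15 of the 71 (2 higher and 13 lower in the overexpressor), 21.1%, beside 14.5% of all genes. By list, 13 transport genes had a median of -0.17, 13 cofactor and reductant genes -0.074, 19 ammonium genes -0.093 and 26 regulators -0.14. Without WT replicate 1, 1 of 72 genes was called, the regulator NLP3, beside 0.136% of all genes.

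The genes with the largest changes among those without overlap are given as values. ASN1 (AT3G47340), the asparagine synthetase induced by darkness and low sugar, had 0.710, 1.37 and 1.38 FPKM in the WT plants against 14.03, 5.98 and 8.05 FPKM in the overexpressor plants. Every overexpressor library was far above WT, the log2 fold change being 2.21 (limma adjusted p = 0.477, SE 0.31) with an adjusted p of 0.0899 without WT replicate 1. ASN1 and ASN2 were both highest in overexpressor replicate 1.

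GLN1;4 (AT5G16570), a further cytosolic glutamine synthetase, had 347, 303 and 316 FPKM in the WT plants against 128, 254 and 144 FPKM in the overexpressor plants. Overexpressor replicate 2 came nearest to WT, and the log2 fold change was -0.94 (SE 0.26, limma adjusted p = 0.805). AMT1;1 (AT4G13510), a carrier that takes up ammonium, had 360.3, 358 and 356 FPKM in the WT plants against 268, 289.8 and 239 FPKM in the overexpressor plants (log2 fold change -0.43, SE 0.10, limma adjusted p = 0.805). The 3 WT plants were within a few FPKM of each other.

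NLP3 (AT4G38340), of the NIN-like family of nitrate-responsive transcription factors, had 4.58, 10.5 and 11.03 FPKM in the WT plants against 4.45, 4.27 and 4.40 FPKM in the overexpressor plants. WT replicate 1 lay just above the overexpressor and the other WT plants well above it. The log2 fold change was -0.77 (SE 0.30, limma adjusted p = 0.805) over all libraries and -1.13 (SE 0.085, limma adjusted p = 0.0128) without WT replicate 1. In that fit WT replicates 2 and 3, whose Spearman correlation was 0.997, were the only WT plants.

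NLP4, of the same family as NLP3, had 12.1 ± 2.14 FPKM for WT and 8.48 ± 1.67 for the overexpressor (SD, n = 3 each). GLB1, the plastid PII protein that senses nitrogen and carbon status, stood at 4.56 ± 0.897 and 6.65 ± 0.894 FPKM (SD, n = 3 each). NRT1.9, a nitrate carrier of the phloem, stood at 56.4 ± 7.96 and 42.2 ± 6.42 FPKM, and G6PD2, a plastid glucose-6-phosphate dehydrogenase, at 6.37 ± 0.143 and 5.90 ± 0.156 FPKM (SD, n = 3 each). Each of the 4 had a limma adjusted p of 0.805 and groups without overlap.

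As a sum, phloem markers differed between the genotypes in the same direction as NRT1.9, GLN1;4, AMT1;1 and the summed glutamine synthetase genes. Summed over 5 phloem markers, the WT plants had 315, 403 and 398 FPKM and the overexpressor plants 285, 299.8 and 308 FPKM, without overlap. SWEET12, PP2-A1 and APL did not overlap and were lower in the overexpressor, as were 9.69% of all genes tested. SUC2 and SEOR1 overlapped, and SEOR1 had the higher mean in the overexpressor, 18.3 FPKM against 14.5 FPKM in WT. None of the 5 passed limma (adjusted p = 0.805 to 0.817). The part of the phloem markers in these gene levels was not tested.

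**Figure D5:**
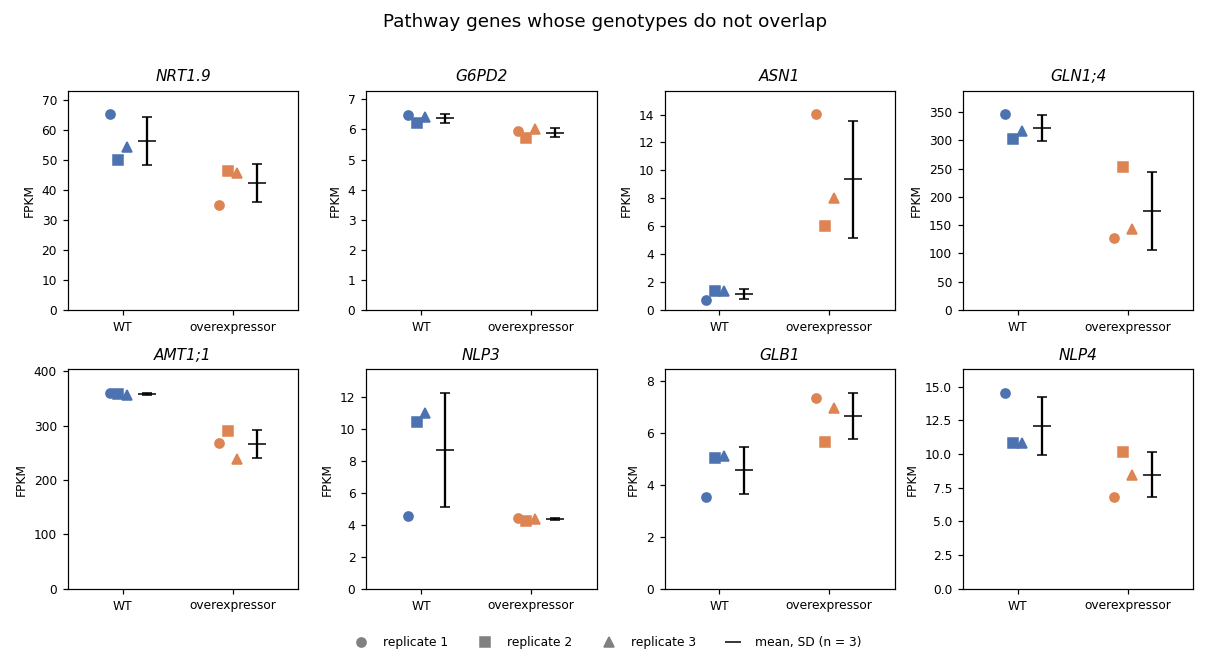
Level in FPKM (y axes, from 0) of 8 other pathway genes whose genotypes did not overlap, points by replicate, with mean and SD (n = 3) in black. Of the genes without overlap, they are up to 3 of each list with the largest changes and a mean of at least 5 FPKM. ASN1 spans 0.710 to 1.38 FPKM in WT plants and 5.98 to 14.03 FPKM in overexpressor plants, and GLN1;4 spans 303 to 347 and 128 to 254 FPKM.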

How the data were processed

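HISAT2, which aligns spliced reads, was used per the submitters' processing notes. Which version, genome build and counting program were used is not given in the sources used here. Gene levels were deposited by the authors as FPKM, and each column was matched to a sample by its title, with 0 columns left over. All identifiers matched the RefSeq annotation of TAIR10.1. FPKM multiplied by its union exonic length stepped in whole reads for 100% of values (tolerance 0.1 reads), which gave the depth. Genes averaging 1 FPKM or more were compared as log2(FPKM + 1) in limma 3.58.1 (R 4.3.3) with a mean-variance trend. The test was two-sided, with a Benjamini-Hochberg threshold of 0.05 and without a replicate block. The fit was first checked on simulated data with independent noise and no library apart, which does not show the power reached here. Shares were compared by exact permutation. Alternatives covered the pseudocount, the filter, scaling, sample weights, the trend, voom on recovered reads, the replicate block and each library left out. The p-values cover plants and library preparation together.

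The genes and lists were chosen with earlier results of these data known. Of the list entries, 12 were dropped because the reference did not hold their symbol. All 10 main genes are named. From each list the rule takes called genes, or else the 3 largest changes among genes without overlap and of at least 5 FPKM.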

Additional observations from a re-analysis of the deposited data

How the results depend on the processing

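Pseudocounts of 0.1 and 0.01 FPKM, no filter or one of 5 FPKM, median-ratio scaling, no intensity trend and voom on recovered reads left 0 of the 10 genes called and turned the direction of none of those tested. Quantile normalization also called 0 and turned GLN2 to -0.086. Sample quality weights called 1 of the 9 genes tested (GLN1;2, log2 fold change -0.20, limma adjusted p = 0.0352), beside 1768 of all 16870 genes. In the lists these weights called 4 of 13 transport genes, 0 of 13 cofactor and reductant genes, 7 of 19 ammonium genes and 9 of 26 regulators. The weights turned NRT1.1 to -0.29, GLN2 to -0.12 and GLN1;3 to -0.10.

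With single libraries left out in turn, 0 of the 10 were called, and the regulators had 0 to 1 call. Log2 fold changes ran from -0.19 to 0.33 for NRT1.1, -0.62 to 0.50 for NIA2, -0.14 to 0.19 for GLN2 and -0.063 to 0.14 for GLN1;3, and kept their sign for NIA1 (0.55 to 1.09), NIR1 (0.012 to 0.87), GLN1;1 (-0.76 to -0.011), GLN1;2 (-0.21 to -0.13) and ASN2 (0.42 to 1.22). Differences in share ran from -1.29 to 11.5 percentage points for GLN2, -12.9 to 1.79 for GLN1;1, -0.66 to 0.50 for GLN1;2, 0.16 to 1.32 for GLN1;3 and -7.49 to -0.33 for NIA2. The causes were not tested. Adding GLN1;4 to the glutamine synthetase pool, chosen after seeing the data, turned no difference in share.

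With the replicate number as a block, 0 of the 10 were called, and 0 of all genes against 2 without it. The deviations of same-numbered samples from their group means correlated at -0.60, -0.59 and 0.03. Such deviations depend on each other and WT replicate 1 stood apart, so these values cannot settle whether the numbers pair the plants. Depth limits NRT2.1, at 7 to 67 reads a library.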
